A study of Mus musculus with 2 samples.

Results

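The BMP and TGF-beta genes are 36 genes that encode 11 ligands, 10 receptors and co-receptors, 8 SMAD proteins and 7 antagonists or extracellular modulators, and they were examined in LHX6 ChIP-seq of the mouse maxillary arch, from which the upper jaw and most of the palate develop. ChIP-seq sequences the DNA that an antibody brings down with a chromatin protein, here LHX6, a LIM homeodomain transcription factor. A gene was taken to have an LHX6 interval, a region of enriched fragment density, where the deposited annotation of an interval names its symbol. By that rule 10 of the 36 genes had at least 1 interval, with 24 of the 6566 LHX6 intervals between them. The 2 libraries were an LHX6 ChIP made with a rabbit polyclonal antibody from 20 µg of chromatin and an input of chromatin without antibody. Both were labelled wild-type CD1, from maxillary arches at E11.5, and the protocol pools 47 embryos. There was 1 library per group and no perturbed sample, so the values have no replicate error and the groups could not be compared by a test. Pooled tissue also leaves binding in more cells and stronger binding per cell impossible to tell apart. The assay reads chromatin and not RNA, so neither the tissue label nor the expression of these genes could be checked. Depth is unknown, since the deposited list gives intervals and no read totals. All positions refer to NCBIM37 (mm9).

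Ligands of the BMP and TGF-beta family are secreted dimers that bring together type I and type II receptor kinases at the cell surface. The activated type I receptor phosphorylates receptor-regulated SMADs, which join SMAD4 and act on transcription in the nucleus, while inhibitory SMADs, pseudoreceptors and secreted antagonists restrain the signal. In the developing face the pathway is known for its part in outgrowth of the facial prominences and in palate formation.

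The highest intervals of the receptors and of the only ligand with an interval are shown by the 201 bases centred on their summits, the positions of highest density. The plus strand of NCBIM37 is printed, and capitals mark 5 hexamers on either strand. Of these, 3 are homeodomain cores, the hexamer TGATTG, the hexamer TGATTA or the hexamer TAATTA, and 2 are E-boxes, the hexamer CATCTG or the hexamer CAGCTG. The 2 highest lie in introns of Tgfbr3, at heights of 66 and 57, where the height is the highest density of 150 bp extended fragments in the interval. Both have TGATTG within 15 bp of the summit, and the interval of height 57 also has the E-box CAGCTG followed closely by the core TGATTA.
Tgfbr3 at chr5:107596956-107597156: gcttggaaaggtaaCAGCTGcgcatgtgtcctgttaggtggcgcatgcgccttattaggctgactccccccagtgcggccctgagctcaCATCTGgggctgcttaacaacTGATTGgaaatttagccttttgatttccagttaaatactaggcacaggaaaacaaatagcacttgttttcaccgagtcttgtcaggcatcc
Tgfbr3 at chr5:107625116-107625316: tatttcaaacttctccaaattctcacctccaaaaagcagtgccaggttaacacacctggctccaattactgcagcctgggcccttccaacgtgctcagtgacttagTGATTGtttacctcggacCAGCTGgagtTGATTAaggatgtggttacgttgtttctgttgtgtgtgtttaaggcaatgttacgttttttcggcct
The highest interval at a gene's own start, of height 38, also belongs to Tgfbr3. It is rich in CpG, and its capitals are TGATTG read on the minus strand.
Tgfbr3 at chr5:107718524-107718724: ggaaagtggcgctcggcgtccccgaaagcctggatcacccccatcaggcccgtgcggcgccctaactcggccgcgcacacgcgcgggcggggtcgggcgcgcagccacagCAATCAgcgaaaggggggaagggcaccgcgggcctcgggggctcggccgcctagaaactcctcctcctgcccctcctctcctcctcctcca
The interval of Bmp6, of height 55, holds TGATTA on one side of the summit and CAGCTG on the other.
Bmp6 at chr13:38443868-38444068: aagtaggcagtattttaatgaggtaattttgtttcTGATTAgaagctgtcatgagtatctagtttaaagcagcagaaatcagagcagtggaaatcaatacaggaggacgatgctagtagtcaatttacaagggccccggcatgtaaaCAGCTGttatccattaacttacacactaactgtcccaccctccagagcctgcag
The 2 highest intervals of Tgfbr2 differ in the sites they hold. That of height 37 has 3 E-boxes and no core, and that of height 34 has TGATTA at both ends of the window and no E-box.
Tgfbr2 at chr9:116047804-116048004: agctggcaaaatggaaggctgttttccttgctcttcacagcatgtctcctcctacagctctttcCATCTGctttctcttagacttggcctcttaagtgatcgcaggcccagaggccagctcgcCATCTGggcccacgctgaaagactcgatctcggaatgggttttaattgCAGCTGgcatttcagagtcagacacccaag
Tgfbr2 at chr9:116035708-116035908: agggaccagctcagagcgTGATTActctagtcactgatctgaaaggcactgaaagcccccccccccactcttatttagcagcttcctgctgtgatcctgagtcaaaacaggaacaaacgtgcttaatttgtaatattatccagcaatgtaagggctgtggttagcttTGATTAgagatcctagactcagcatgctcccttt
Among the SMAD genes, the highest interval lies at the start of Smad3, at height 29, and holds none of the 5 hexamers. The lower interval in Smad9, of height 22, has the core TGATTG with the core TAATTA 1 base beyond it.
Smad3 at chr9:63605884-63606084: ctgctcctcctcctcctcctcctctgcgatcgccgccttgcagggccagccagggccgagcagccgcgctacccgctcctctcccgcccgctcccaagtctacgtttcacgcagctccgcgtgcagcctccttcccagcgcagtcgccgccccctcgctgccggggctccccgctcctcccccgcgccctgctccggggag
Smad9 at chr3:54581100-54581300: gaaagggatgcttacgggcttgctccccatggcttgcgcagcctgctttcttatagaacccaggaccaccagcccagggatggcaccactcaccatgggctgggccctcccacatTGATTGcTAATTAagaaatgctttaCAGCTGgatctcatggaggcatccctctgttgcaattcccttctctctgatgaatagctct

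Among the 36 genes, receptors and SMADs were listed with an LHX6 interval in larger shares than ligands and antagonists. Of the SMAD genes 4 of 8 had an interval, of the receptors and co-receptors 4 of 10, of the antagonists and modulators 1 of 7 and of the ligands 1 of 11. Over all genes, 20.6% of 22208 protein-coding GENCODE symbols and 14.0% of all 33867 symbols were listed with an LHX6 interval, against 27.8% of the BMP and TGF-beta genes. With intervals over 1 kb from every listed gene start alone, 8 of the 36 genes remained, 4 of them SMADs, 3 receptors and 1 a ligand, against 7.54% of protein-coding symbols. At a gene start, 7 of the 36 genes had an interval, against 14.9% of protein-coding symbols. The classes are small and were not tested against each other. Only Tgfbr3, Tgfbr2 and Bmp6 had an interval of height 30 or more, against 4.63% of protein-coding symbols.

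**Figure D1:**
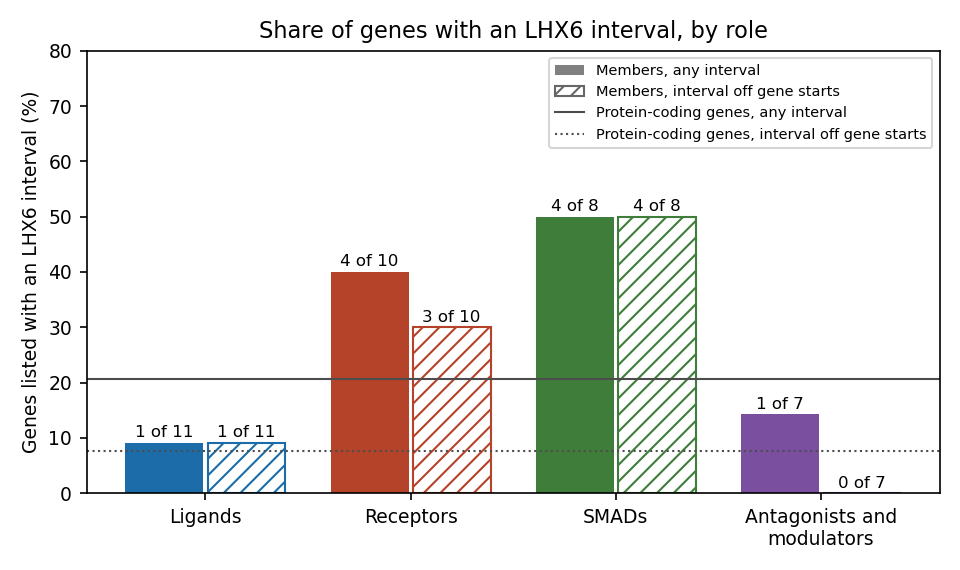
Percentage of genes listed with an LHX6 interval, by role (vertical axis), for any interval (solid bars) and for intervals over 1 kb from every listed gene start (hatched bars), with the number of genes above each bar. The horizontal lines give the same shares of protein-coding genes, 20.6% and 7.54%. The receptor and SMAD bars stand above both lines and the solid bars of ligands and antagonists below the upper one. The hatched bar of ligands stands above the lower line, and no antagonist had an interval off gene starts.

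Gene length moved with these counts. The 10 genes with an interval had a median length of 98.6 kb and the 26 without one 37.7 kb, against 24.9 kb and 13.7 kb for protein-coding symbols with and without an interval. The class medians were 91.8 kb for receptors, 62.6 kb for SMADs, 22.3 kb for ligands and 9.26 kb for antagonists. Among genes of 60 kb or more, 7 of 19 had an interval, against 31.5% of protein-coding symbols of that length. From 20 to 60 kb it was 2 of 7, against 22.9%, and below 20 kb 1 of 10, against 16.1%. For intervals off gene starts the counts were 6 of 19 genes of 60 kb or more, against 20% of protein-coding symbols of that length, 2 of 7 from 20 to 60 kb, against 6.27%, and 0 of 10 below 20 kb, against 4.05%. Of the 8 genes with such an interval, 6 were thus in the longest class, where the share over protein-coding symbols was also the highest of the 3. The part of gene length in the difference between the classes was not tested. Among the longest genes, Bmpr1b (332 kb) had 1 interval, Tgfbr3 (183 kb) had 6 and Bmp6 (155 kb) had 2. Ltbp1, whose product binds latent TGF-beta in the matrix (387 kb), Bmper, a secreted BMP regulator (262 kb), and Acvr1 (179 kb) were listed with none.

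Tgfbr3, which encodes betaglycan, the co-receptor that presents TGF-beta to its receptors, had the most intervals of the 36 genes. Its 6 intervals had heights of 38 at the start, and of 28, 21, 57, 66 and 23 at 20.5, 67.2, 93.3, 121 and 126 kb along the gene, and they spanned 127 kb. The interval of height 66 lay in intron 4 (chromosome 5, 107596296 to 107597743) and ranked 118 of 6566, with 98.1% of LHX6 intervals lower. That of height 57 lay in intron 3 (chromosome 5, 107624786 to 107625738) and ranked 200. The interval of height 38 covered the start, with its summit in the untranslated exon 1 by GENCODE (chromosome 5, 107717803 to 107718938). The deposited heights are whole numbers. Read as fragment counts, they would carry 95% Poisson intervals of 51.0 to 84.0 for the height of 66, 43.2 to 73.9 for 57 and 26.9 to 52.2 for 38, for counting error alone, so that the order of the 2 highest is not resolved. The remaining 3, at 21 to 28, lay within the interquartile range of all LHX6 intervals, 18 to 28. Of the protein-coding symbols with an interval, of any gene length, 0.742% had 6 or more.

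Tgfbr2, which encodes the type II receptor of TGF-beta, had 4 intervals. Its heights were 23 at the start (chromosome 9, 116083553 to 116084958), 37 in intron 2 (chromosome 9, 116047577 to 116048434), and 28 and 34 in intron 4 (chromosome 9, 116037248 to 116037902 and 116035297 to 116036236). The 3 intronic intervals, 36.5 to 48.6 kb from the start, were all higher than the one at the start, though the Poisson intervals of all 4 overlap. By the deposited positions, there were 3.3 intervals per 100 kb of gene inside Tgfbr2 and 2.73 inside Tgfbr3, higher than in 99.7% and 99.3% of the 4067 protein-coding symbols of 60 kb or more, of which 78.8% had none inside. Across the other genes of this length, the density was 1.45 per 100 kb in Smad6, 1.29 in Bmp6, 0.899 in Smad3 and 0.301 in Bmpr1b, and 0 in the other 13. Counting summits inside the GENCODE bounds instead, listed or not, gave 3.28 in Tgfbr3, where the start interval was added, and left Tgfbr2 at 3.3, both above 99.6% of these symbols. It gave 2.9 in Smad6 and 0.602 in Bmpr1b, each with 2 summits in place of 1, and the same values in Bmp6 and Smad3.

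The receptors and co-receptors other than Tgfbr2 and Tgfbr3 had low intervals or none. Bmpr1b, a type I receptor of BMPs, had 1 interval of height 17 in intron 1 (chromosome 3, 141586395 to 141587289), with 15.1% of LHX6 intervals lower. Bmpr2, a type II receptor of BMPs, shared its interval of height 16 with B430105G09Rik and LOC100043007 (chromosome 1, 59819536 to 59820239). That summit lay 1.49 kb upstream of the Bmpr2 start and 939 bp inside LOC100043007, so it counts as a gene-start interval through the neighbour. The type I receptors Bmpr1a, Acvr1 and Tgfbr1, the activin type II receptors Acvr2a and Acvr2b, and Eng, the co-receptor endoglin of endothelial cells, were listed with none.

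Among the ligands, Bmp6 alone was listed. It had an interval of height 55 in intron 1, 6.38 kb from the start (chromosome 13, 38443511 to 38444414), which ranked 220 of 6566. A lower one of height 21 lay 51.5 kb from the start in the same intron (chromosome 13, 38488539 to 38489488). Read as counts, the heights have Poisson intervals of 41.4 to 71.6 and 13 to 32.1, for counting error alone. The other 10 ligands, the BMPs Bmp2, Bmp3, Bmp4, Bmp5 and Bmp7, the TGF-betas Tgfb1, Tgfb2 and Tgfb3, the activin subunit Inhba and the growth factor Gdf11, were listed with none.

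**Figure D2:**
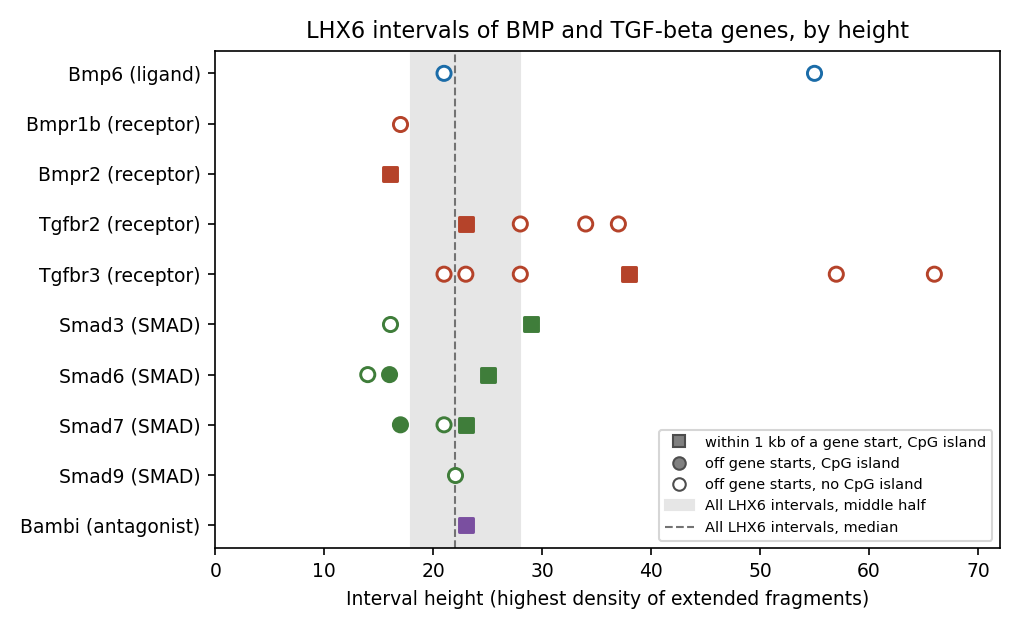
Height of each of the 24 intervals (horizontal axis, highest density of extended fragments) by gene, coloured by role; squares lie within 1 kb of a gene start, circles off gene starts, and filled symbols overlap a CpG island. The grey band and dashed line give the interquartile range (18 to 28) and median (22) of all LHX6 intervals; the 3 symbols at 50 or more belong to Tgfbr3 and Bmp6, and none of the SMAD symbols exceeds 29.

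SMAD intervals had a lower median height than those of receptors, 21 against 28, and 3 of 9 lay at a gene start, against 3 of 12. Off gene starts the medians were 16.5 for SMADs and 28 for receptors. At gene starts the order was the other way, 25 for SMADs and 23 for receptors, against 21 over all LHX6 intervals there. Smad3, which carries TGF-beta and activin signals, had an interval of height 29 at its start (chromosome 9, 63605581 to 63606527) and of height 16 in intron 1, 20.3 kb in (chromosome 9, 63585070 to 63585909). The inhibitory SMADs, Smad6 and Smad7, had 3 intervals each. Those of Smad6 had heights of 25 at the start (chromosome 9, 63868637 to 63870255), 16 just upstream of it (63870363 to 63871256) and 14 in intron 3 (63828226 to 63829077). Those of Smad7 had heights of 23 at the start (chromosome 18, 75525748 to 75527699), 17 in the coding exon 1 (75528390 to 75529336) and 21 in intron 2 (75532046 to 75532752). Each of these genes thus had a pair of intervals on CpG islands within 2 kb of the start and 1 more without an island. Smad9, a receptor-regulated SMAD of the BMP branch, had 1 interval of height 22 in intron 1 (chromosome 3, 54580841 to 54581485). Smad1 and Smad5 of the BMP branch, Smad2 of the TGF-beta branch and the common partner Smad4 were listed with none. A summit of height 15 nevertheless lay 51 bp upstream of an annotated start of Smad5 (chromosome 13, 56804098 to 56804677, on a CpG island), in an interval for which the deposited annotation names no gene.

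Among the antagonists and modulators, Bambi alone was listed. Nog, Chrd, Grem1 and Fst, which encode noggin, chordin, gremlin and follistatin, were listed with none, nor were Bmper and Ltbp1. Bambi, a membrane pseudoreceptor that lacks the kinase domain, had 1 interval of height 23 at its start, on a CpG island (chromosome 18, 3507575 to 3508531).

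**Figure D3:**
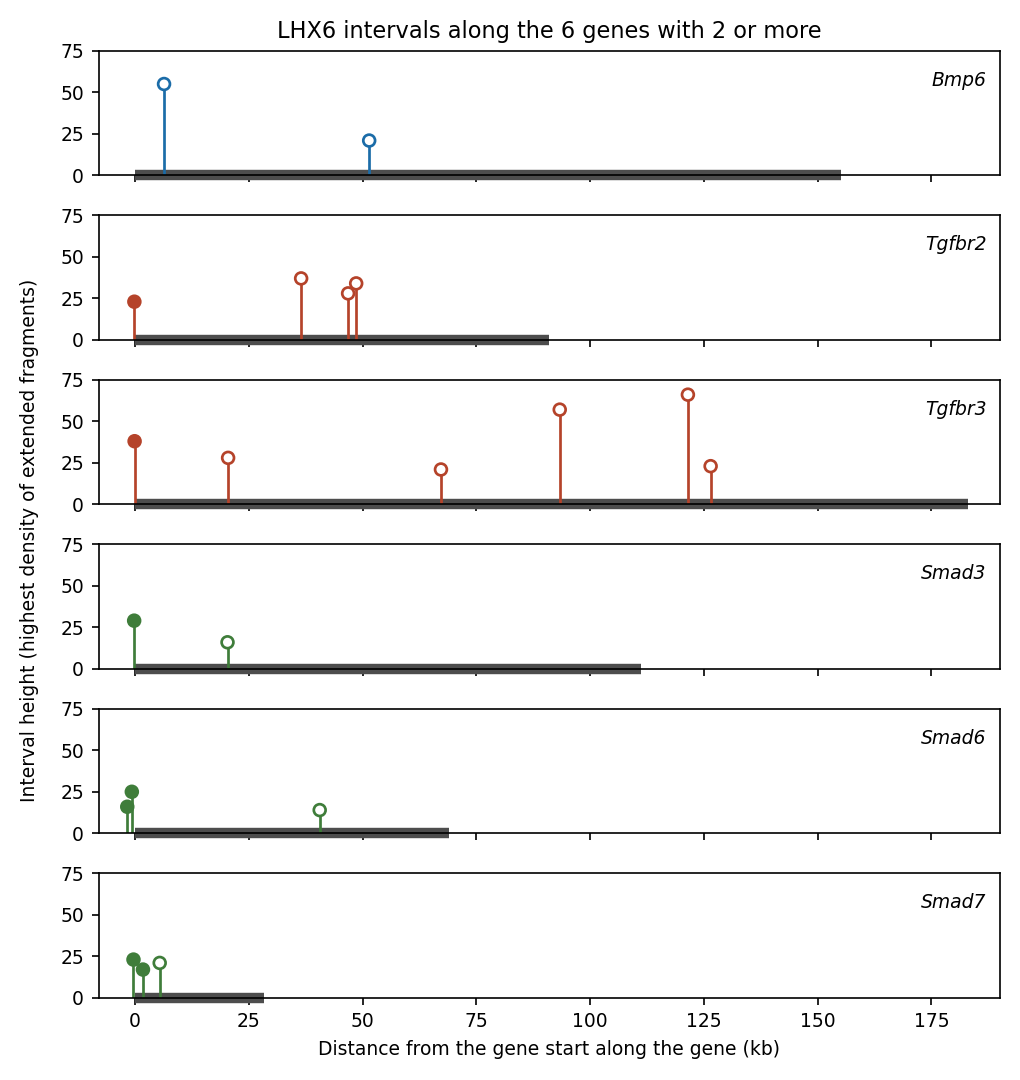
Height of each interval (vertical axes, highest density of extended fragments) against its distance from the gene start (horizontal axis, kb) in the 6 genes with 2 or more intervals; the grey bar is the gene and filled points overlap a CpG island. In Tgfbr2, Tgfbr3 and Bmp6 the highest point lies inside the gene, and in Smad3, Smad6 and Smad7 at the start.

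Over all 24 intervals the median height was 23, against 22 for all LHX6 intervals, and 15 of the 24 were at or above that median. By class the medians were 38 over the 2 ligand intervals, 28 over the 12 of receptors, 23 for the 1 of an antagonist and 21 over the 9 of SMADs. These medians pool intervals of the same gene. Both ligand intervals were of Bmp6, and of the 12 receptor intervals 6 were of Tgfbr3 and 4 of Tgfbr2. Those of Bmpr1b and Bmpr2 were at 17 and 16, below the SMAD median. At gene starts the 7 intervals had a median of 23, against 21 over all 2354 LHX6 intervals there, and off gene starts the 17 had a median of 22, against 23 over all 4212. The set as a whole was thus near the level of all intervals, and 3 of the 24 reached a height of 50, against 306 of 6566. With Tgfbr3 left out, the median was 1.02 times that of all LHX6 intervals, against 1.05 times with it. Of the 24, 7 lay at a gene start (29.2%, against 35.9% of all LHX6 intervals) and 9 overlapped a CpG island (37.5%, against 41.6%). Within 1 kb of any GENCODE transcript start, the first count was 8, against 41.8% of all LHX6 intervals. The CpG islands were held by all 7 intervals at gene starts and by 2 of the 17 others, the second of Smad6 and the second of Smad7. By class, CpG islands were overlapped by 5 of 9 SMAD intervals, 3 of 12 receptor intervals, 0 of 2 ligand intervals and the 1 antagonist interval. Of the 10 genes with an interval, 6 had 2 or more, against 19.7% of the protein-coding symbols with an interval. That comparison was not matched for gene length, with medians of 98.6 kb for the 10 genes and 24.9 kb for those symbols. In Smad6 and Smad7 it also counts neighbouring CpG island intervals around the same start. None of the 24 overlapped any of the 6 input intervals, and the deposited list gives no input value at any of them. With so few input intervals, an overlap could hardly have occurred in a set of this size. Its absence is thus no control of these intervals.

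Homeodomain cores were found about as often at these summits as over all LHX6 intervals. At least 1 of the 3 cores, searched on both strands within 100 bp of the summit, was found at 13 of 24 summits (54.2%), against 50.1% of all LHX6 intervals. In the windows 2 kb to either side it was found in 13 of 48 (27.1%), against 20.2% over all intervals. Off gene starts the count was 10 of 17, against 62.9% of all such intervals, and at gene starts 3 of 7, against 27.3%. By class it was 8 of 12 for receptors, 2 of 2 for the ligand Bmp6, 3 of 9 for SMADs and 0 of 1 for Bambi. The core TGATTG was found at 9 summits, against 32.3% of all LHX6 intervals, the core TGATTA at 5, against 23%, and the core TAATTA at 1, against 8.74%. The E-box CATCTG was found at 5, against 21.8%, and the E-box CAGCTG at 8, against 16.3%. Either E-box was found at 9 of 24 summits (37.5%), against 33.9% of all LHX6 intervals. Some of the hexamers can share end letters with another, but no matches at these summits did, and a match describes the sequence, not a bound site. The GC content of the windows had a median of 66.2% at gene starts, against 65.2% over all intervals there, and of 47.8% off gene starts, against 46.3%.

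**Figure D4:**
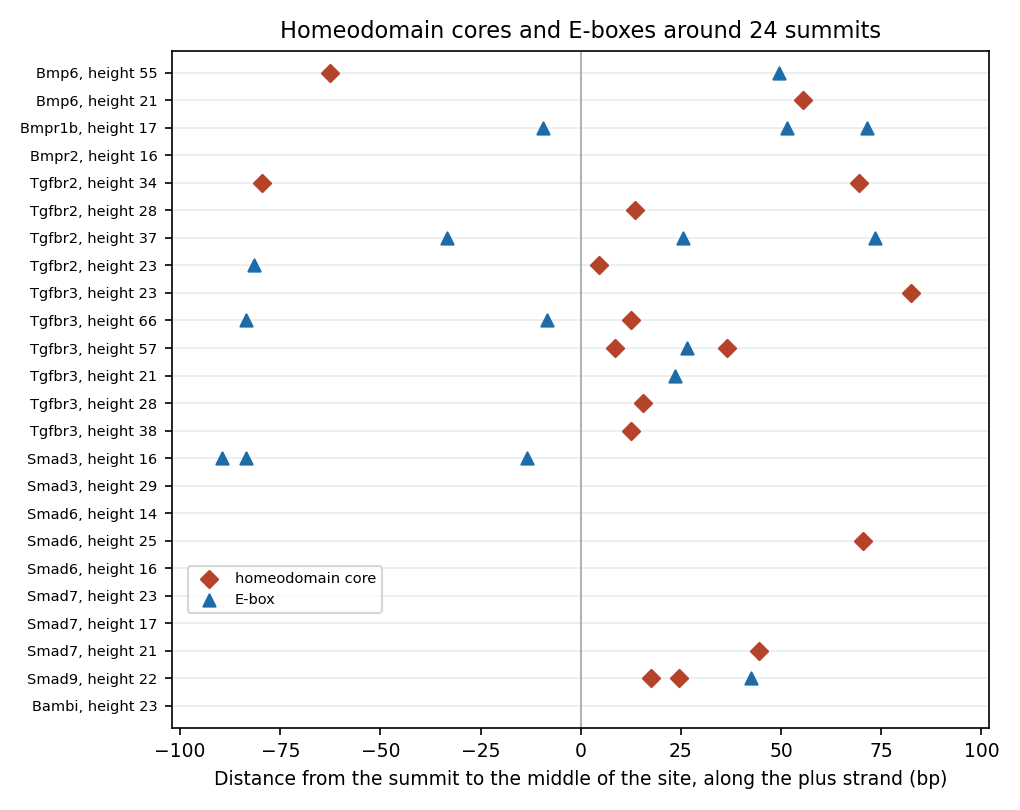
Distance in bp from the summit to the middle of each homeodomain core (diamonds) and E-box (triangles) within 100 bp, along the plus strand (horizontal axis), for each of the 24 intervals (rows, with gene and height). In 5 of the 6 Tgfbr3 rows a core is present, and 4 of these 5 have it within 25 bp of the summit; 7 rows hold neither kind of site.

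In Tgfbr3, 5 of the 6 summits had a core, and the 3 highest each had TGATTG near the summit. TGATTG was centred 12.5 bp from the summit of height 66, 8.5 bp from that of height 57 and 12.5 bp from that of height 38. In the interval of height 66, the E-box CATCTG lay 15 bases from the core TGATTG (107597066 to 107597071 on the plus strand), and the E-box CAGCTG was 83.5 bp from the summit. In that of height 57, the E-box CAGCTG lay between the core TGATTG (107625222 to 107625227) and the core TGATTA (107625250 to 107625255), 12 and 4 bases away. Of the 9 TGATTG sites of the set, 6 lay within 25 bp of the summit, with a median distance of 13.5 bp, against 39.8% and 32.5 bp for the 2854 TGATTG sites of all LHX6 intervals. The close sites were those of Tgfbr3, Tgfbr2 and, at 17.5 bp, Smad9. Those of Bmp6, Smad6 and Smad7 lay at 55.5, 70.5 and 44.5 bp. The 6 TGATTA sites had a median distance of 66 bp, against 32.5 bp over all intervals. Summits fell on multiples of 16 bp in 97.5% of intervals, so smaller distances are not resolved. In Smad9 the core TGATTG (54581215 to 54581220) was 1 base from the core TAATTA (54581222 to 54581227), and the E-box CAGCTG followed 12 bases on.

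Genes with no listed interval ranged widely in their distance to the nearest LHX6 summit. Within 100 kb of an annotated start, 22 of the 36 genes had a summit, against 49.5% of protein-coding symbols and 45.6% of all symbols. They were 8 of 10 receptors, 6 of 8 SMADs, 6 of 11 ligands and 2 of 7 antagonists, and 12 of the 22 were not listed with an interval. For Bmp7, a ligand, 1 of the 2 such intervals, of height 26 and 93.8 kb downstream of the start, was listed with no gene (chromosome 2, 172671400 to 172672292). For Acvr1, a type I receptor, an interval of height 19 with no listed gene lay 16.6 kb upstream (chromosome 2, 58435863 to 58436548). For Acvr2b, a type II receptor, both intervals overlapped CpG islands, and the one of height 20 was listed with no gene. For the ligands Tgfb1, Tgfb2, Bmp5 and Gdf11, the receptors Acvr2a and Eng, and for Smad4 and Chrd, every interval within 100 kb overlapped a CpG island and was listed with other genes. The nearest summit was 101 kb away for Bmp4, a central ligand of facial development, 268 kb for Bmp2, 305 kb for Nog, 318 kb for Grem1, 564 kb for Bmpr1a and 840 kb for Fst. The median distance by class was 10.9 kb for SMADs, 25.5 kb for receptors, 91.4 kb for ligands and 211 kb for antagonists.

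**Figure D5:**
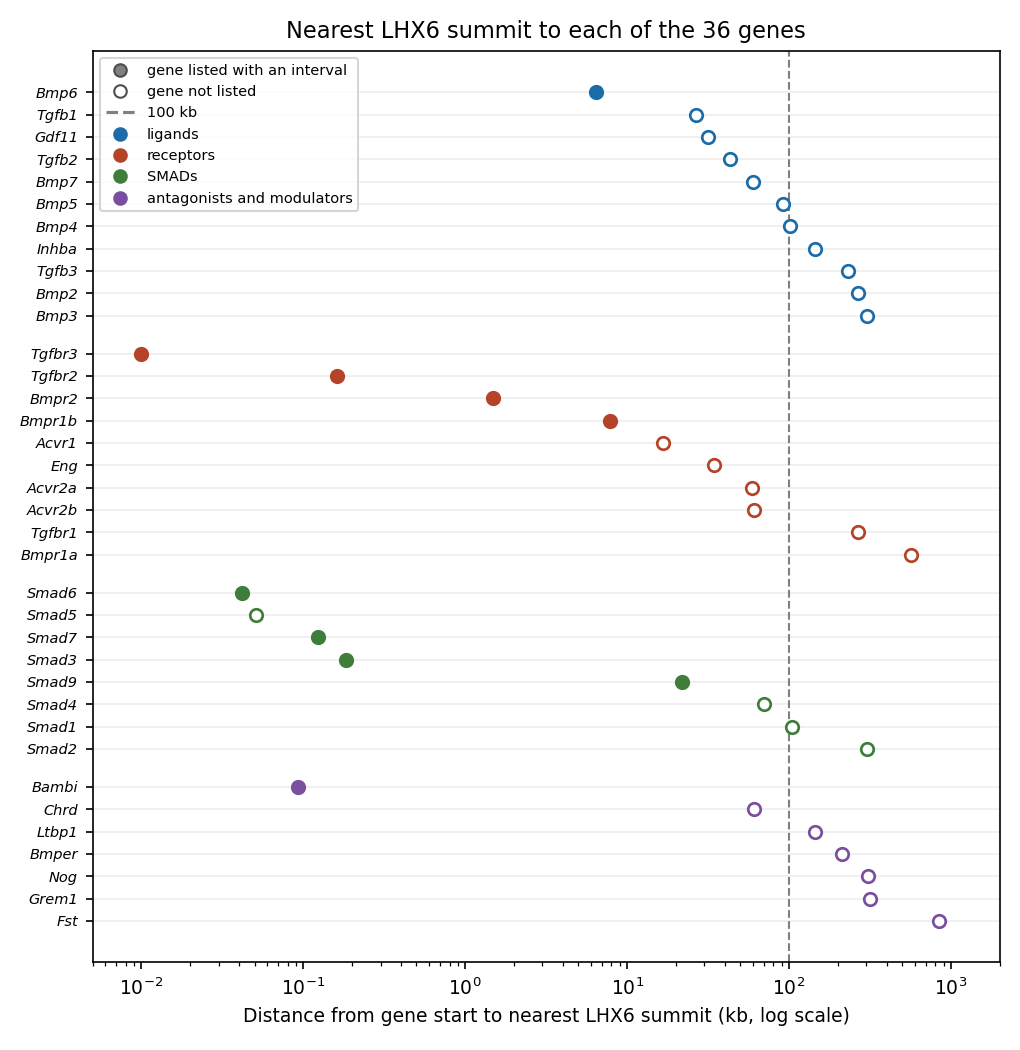
Distance in kb from any annotated start of each of the 36 genes to the nearest LHX6 summit (horizontal axis, log scale), by role and in order of distance within it; filled points are genes listed with an interval and the dashed line marks 100 kb. Smad5 is the open point at 51 bp, and the antagonists other than Bambi and Chrd lie beyond the line.

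Of 57 further genes of the pathway, 15 (26.3%) were listed with 21 intervals, against 20.6% of protein-coding symbols. The median height of these intervals was 23, with a range of 14 to 55. Of the receptors among these genes, Acvrl1, Acvr1b, Acvr1c and Amhr2, only Acvrl1 was listed. The ligands Amh, Gdf9 and Gdf15 were listed, at heights of 24, 18 and 23. So were the secreted antagonists and modulators Sostdc1 and Twsg1, both at 21 inside the gene, and Fstl3, at 18 upstream of it. The interval of height 55 was listed for Bmp1, a protease that cleaves chordin, 48.9 kb from its start and beyond its end, and also for the neighbour Phyhip (chromosome 14, 70870588 to 70871582). Acvrl1, an endothelial type I receptor, had 1 of height 31 inside the gene (chromosome 15, 100970269 to 100970659). The Id genes are transcriptional targets of BMP signalling whose products antagonise basic helix-loop-helix factors. Id2 had 4 intervals of heights 25, 25, 20 and 24, Id1 had 3 of 15, 18 and 22, and Id3 had 2 of 31 and 23, while Id4 was listed with none. After Bmp1, Acvrl1, Id3 and Id2, the next highest intervals were at 24 in each of Amh, Ltbp3 and Map3k7. Those of Amh and Ltbp3 lay 6.33 and 9.14 kb upstream of these genes, at the starts of neighbours, and that of Map3k7, a kinase activated by TGF-beta, lay at its own start.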

How the data were processed

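Here 1 library each of LHX6 ChIP and input was sequenced. BWA placed the reads on mm9 and each read was lengthened to a fragment of 150 bp before densities were taken, per the labels' protocols; MACS is named, without a version, per the submitters' processing notes. The sources used here give no settings or thresholds for the intervals. The authors deposited, for each interval, its signal as the highest and the mean fragment density, with no fold and no p-value, a score column of other kind that counts overlapping CpG islands, and the genes nearby. Scaling between the libraries is not stated. The H3K27ac experiment that the protocols describe was not analysed here.

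Computed here, with Python 3.11.15, pandas 2.3.3 and SciPy 1.17.1: genes were matched by their exact symbol; 89.9% of 5266 listed symbols were matched to GENCODE M1, older names through a RefSeq gene table, from which no coordinate was taken. The deposited gene distances of the 24 intervals were within 200 bp of the GENCODE distance in 21. The others, those of Smad6, differed by up to 738 bp. Intron numbers count from the 5' end of the transcript with the longest coding sequence. A gene start is within 1 kb of a summit by the deposited distances, for any listed gene. Sequences were read from NCBIM37. No test was run, since each group has 1 library and intervals are not replicates; shares and medians are descriptions of these libraries. Poisson intervals are exact for a single count. A height is the maximum over a called interval, so they cover its error only in part and are no test between heights. The matching and motif functions were tested on simulated data. The genes, the motifs and the other pathway list were chosen with earlier results of these data known. All 36 genes are accounted for, and every gene with an interval is named; of the other pathway genes, the 6 with the highest interval were to be named, and 7 are, since 3 tied. The Id genes and the receptors, ligands, antagonists and modulators of that list were named and sorted by role after their values were seen, as were the sequences of the second Tgfbr3 interval, of Tgfbr2 and of Smad9. Alternatives covered the height, gene assignment, position, CpG islands, window and input overlap.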

Additional observations from a re-analysis of the deposited data

How the results depend on the processing

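Of 26 alternatives, 21 kept their value within 1.5 times the reported count or density, or within the Poisson interval of the median height, and 5 moved. Of the 36 genes, 3 had an interval of height 30 or more and 22 had a summit within 100 kb of an annotated start, in place of 10, against 4.63% and 49.5% of protein-coding symbols. Cores within 50 bp of the summit, in place of 100 bp, were found at 8 of 24 intervals in place of 13, against 39.2% of all LHX6 intervals. The counts at height 30 and at 50 bp are subsets of the reported counts by construction, and the 100 kb window reaches beyond the deposited annotation. Some of the 21 could not have moved. The protein-coding background changes only the comparison and leaves the count at 10 genes. The stricter input overlap could only give 0, since no interval overlapped by 1 bp. Others of the 21, such as intervals over 1 kb from every listed start, are also subsets. Assigning each interval to the nearest start within 10 kb also gave 10 genes, of which 9 were the same; Smad5 replaced Smad9. Summits inside the GENCODE gene moved the density per 100 kb to 2.9 in Smad6, from the deposited 1.45, and to 0.602 in Bmpr1b, from 0.301. This count, older symbols, Tgfbr3 left out, a gene's own start and the middle of the interval as centre were chosen after the data were seen. No paired analysis was possible because each group has 1 library. The unknown depth of both libraries and the absence of input values at these intervals limit what heights can show, and Smad5 shows that an unlisted gene may have an interval at its start.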

Other observations

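Several genes with no listed interval had homeodomain cores at the nearest one, which was singled out after its sequence was seen. For Bmp4 it lay 101 kb upstream at a height of 19, with no listed gene (chromosome 14, 47111271 to 47111837). For Ltbp1 it lay 145 kb upstream at a height of 33, listed for Ttc27 (chromosome 17, 75259444 to 75260115). For Bmp3 it lay 301 kb upstream at a height of 35, listed for 1700007G11Rik (chromosome 5, 98982140 to 98982956). These 3 were singled out for holding all 3 homeodomain cores within 100 bp of the summit, so the comparison is a description only. They were 3 of the 26 nearest intervals of unlisted genes, against 1.14% of all LHX6 intervals and 0 of the 24 listed ones. The share over all LHX6 intervals includes those at gene starts, where TAATTA was found at 1.87%, against 12.6% off gene starts. At least 1 core was found at 12 of the 26 nearest intervals of unlisted genes (46.2%), against 50.1% of all LHX6 intervals. Whether any of these intervals acts on the gene named beside it was not tested.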
